A study of Homo sapiens with 3 samples.

Results

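Cyclin-dependent kinase (CDK) inhibitors were described after cisplatin in the cell line KYSE140, which derives from a squamous carcinoma of the human oesophagus. Cisplatin is a platinum drug that crosslinks DNA. The genes considered were CDKN1A (p21), CDKN1B (p27), CDKN1C (p57), CDKN2A (p16 and ARF), CDKN2B (p15), CDKN2C (p18), CDKN2D (p19) and CDKN3 (the phosphatase KAP). A probe set was taken when the platform annotation gave it 1 gene symbol and that symbol was one of these 8. This found 16 of the 54675 probe sets, for 7 of the 8 genes, and CDKN2C was not analysed here. The labels give 2 arrays of cells treated with cisplatin at 10 mM for 12 h, titled B1 and B2, and 1 array of cells left untreated, all grown in RPMI medium with serum. Micromolar cisplatin is the usual range for cell culture, which leaves the unit of the labelled dose uncertain. Separate cultures are not stated for B1 and B2, so every SD and p-value here covers the spread of these samples alone, and that spread may be technical.

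Progress through the cell cycle is driven by CDKs bound to cyclins, and CDK inhibitors hold these kinases in check. The Cip/Kip proteins p21, p27 and p57 bind cyclin-CDK complexes of several kinds, whereas the INK4 proteins p16, p15, p18 and p19 bind CDK4 and CDK6 and keep D-type cyclins from activating them. CDKN1A is a textbook DNA damage response gene, the p27 protein is controlled largely through its destruction by the SKP2 ubiquitin ligase, and loss of CDKN2A is frequent in squamous carcinomas. KAP, made by CDKN3, is a phosphatase that removes the activating phosphate of CDK2.

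Each value is the intensity of 1 probe set on 1 array, and log2 differences are cisplatin minus untreated. The untreated condition had a single array, and B2 stood further from the untreated array (SD of the log2 difference over 54613 probe sets 0.54) than B1 did (0.34), with an SD of 0.49 between B2 and B1. Array medians were 35.9 in B1, 35.6 in B2 and 34.8 in the untreated array. Of 10 squamous epithelial markers, 7 had a probe set with 1 gene symbol, and all 7 lay above the array medians on every array. KRT6A, KRT17 and TP63 had none and were not read. Their summed intensity was 9341 in B1 and 15772 in B2, against 9462 in the untreated array, so B2 stood apart here too. KRT14, a basal keratin chosen after its values were seen, had an intensity of 276 in B1 and 2372 in B2, against 278 in the untreated array. KRT5 had 1345 in B1 and 4251 in B2, against 1217 untreated, and DSG3, DSC3 and TRIM29 were also highest in B2. CDH1 was near level, at 2271 in B2 against 2186 untreated, and EPCAM was slightly lower, at 4190 against 4545. Among the defining markers of other cell types, 1 of 6 fibroblast, 1 of 4 measured leukocyte and 1 of 5 endothelial genes lay above the array medians on all arrays. Their summed intensities were 266, 276 and 237 (fibroblast), 113, 110.5 and 99.8 (leukocyte) and 119, 109.8 and 104 (endothelial) in B1, B2 and the untreated array.

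CDKN1A had the largest difference shared by both cisplatin arrays among these 16 probe sets. Of the 7 Cip/Kip probe sets, 5 were higher in both cisplatin arrays, where 39.3% of all probe sets were. CDKN1C alone gave 5 of the 7, not all of them higher, and p27 was close to level. The INK4 class split. A pair of CDKN2A probe sets and the dimmer CDKN2B probe set were more than 2-fold lower in B2 and less than 1.5-fold higher in B1. The CDKN2D probe sets, the third CDKN2A probe set and the brighter CDKN2B probe set stayed within 1.5-fold of the untreated array. CDKN3 was nearly level on all 3 arrays. By a size rule that asks for at least a 2-fold difference in the same direction in both cisplatin arrays, 1 of the 16 probe sets was higher (CDKN1A, against 0.233% of all 54613 probe sets) and 0 were lower (against 0.659%). Without regard to size, 9 of the 16 were higher in both arrays, where 39.3% of all probe sets were, and 1 was lower in both, where 28.3% were. The remaining 6 differed in opposite directions in B1 and B2. Over the 16, log2 differences had a median of 0.16 for B1 and 0.27 for B2, against 0.03 and 0.05 over all probe sets. Probe sets of 1 gene share their transcript, so these counts are not over independent items. By brightest probe set, 4 of the 7 genes (CDKN1A, CDKN1B, CDKN1C and CDKN3) were higher in both arrays, where 39.2% of 19775 genes were, and 0 were lower, where 27.4% were. With median centring the 4 became 3, without CDKN1B.

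**Figure D1:**
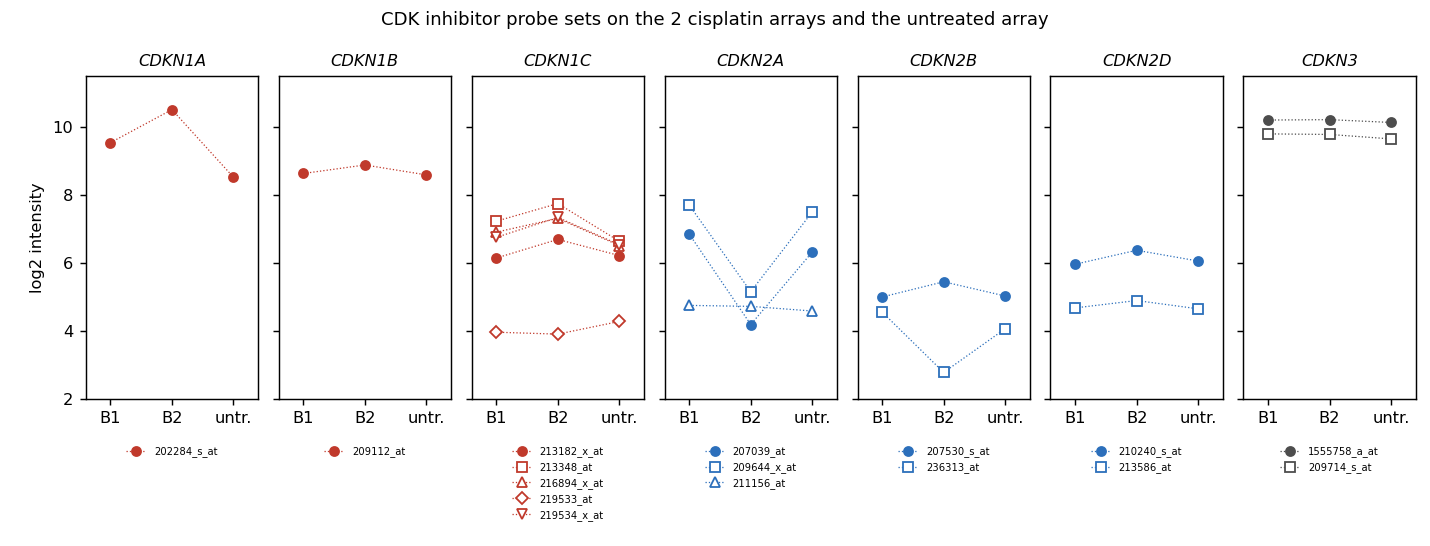
Log2 intensity of the 16 CDK inhibitor probe sets (vertical axis) on the cisplatin arrays B1 and B2 and on the untreated array (horizontal axis), 1 panel per gene and 1 symbol per probe set. Dotted lines only link the points of a probe set. CDKN1A is higher in B1 and B2 than untreated, and 2 CDKN2A probe sets and 1 CDKN2B probe set are low in B2 alone.

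CDKN1A encodes p21, which binds cyclin-CDK complexes and the replication clamp PCNA. Its single probe set, 202284_s_at, had an intensity of 748 in B1 and 1470.0 in B2, against 369 in the untreated array. Both treated arrays lay above the untreated one, and B2 was 1.97-fold above B1, so the treated arrays differed from each other almost as much as B1 did from the untreated array. The excess was 2.03-fold in B1 and 3.98-fold in B2. On the log2 scale the treated pair averaged 10.03 ± 0.69 (SD, n = 2) and the untreated array was 8.53, a difference of 1.51 (SE 0.50, 95% interval -0.04 to 3.05). It did not pass limma's moderated test over all probe sets (adjusted p = 0.95, unadjusted p = 0.053). No probe set of any gene did (0 of 54613, 0%), although 2165 had an unadjusted p under 0.05, which is 3.96% of those tested. The fit had 1 residual degree of freedom, and the untreated array was alone in its group. An exact permutation test of 2 arrays against 1 cannot give a one-sided p below 0.333. By the smaller of its log2 differences CDKN1A was number 27 among 19775 genes. In B1 alone it was number 46 by size and in B2 alone number 59. The B1 excess sits at the edge of the size rule, since median centring of the arrays put it at 0.98 on the log2 scale, below 2-fold, and left B2 at 1.96.

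The start region of CDKN1A is printed because this gene had the largest difference shared by both cisplatin arrays. It is the stretch of 250 bases before the start given for CDKN1A in the RefSeq promoter table, on GRCh38.p14, chr6:36678464-36678713, plus strand. The annotated gene begins upstream of it, at base 36676463, so the window lies inside the gene's span and before an internal start. Capitals mark the GC box, the letters GGGCGG or their reverse complement CCGCCC, searched on both strands with overlaps allowed.
CDKN1A: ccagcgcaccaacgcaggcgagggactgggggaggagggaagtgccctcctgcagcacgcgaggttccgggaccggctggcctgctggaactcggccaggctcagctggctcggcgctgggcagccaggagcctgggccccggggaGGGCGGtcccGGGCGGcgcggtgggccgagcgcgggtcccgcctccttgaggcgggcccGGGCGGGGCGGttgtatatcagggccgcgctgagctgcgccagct
It holds 4 GC boxes, between 104 and 35 bases before the start, and the last 2 share 1 base. Of 35116 windows of this length in the RefSeq table, 42.6% hold at least 1. The window holds no TATAAA or TTTATA, which 10.7% of windows hold, no CACGTG (6.34%) and no CCAAT or ATTGG (32.0%). These are matches of letters in this window, and binding was not measured.

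CDKN1B encodes p27, a brake on CDK2 that is abundant in resting cells. Its probe set, 209112_at, had an intensity of 398 in B1 and 474 in B2, against 387 in the untreated array. Both treated arrays were above the untreated one, B1 by 1.03-fold and B2 by 1.22-fold. The fitted log2 difference was 0.17 (SE 0.21, 95% interval -0.49 to 0.82, limma adjusted p = 0.95), and with median centring the B1 difference turned to -0.002.

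CDKN1C encodes p57, an imprinted inhibitor best known from embryonic growth control, and 5 probe sets read it. The brightest, 213348_at, had an intensity of 150.2 in B1 and 215 in B2, against 99.7 in the untreated array. B1 and B2 were thus 1.51-fold and 2.16-fold above the untreated array, and did not overlap it. The fitted log2 difference was 0.85 (SE 0.31, 95% interval -0.09 to 1.79, limma adjusted p = 0.95). The order of the arrays was the same for 216894_x_at, with 120.1 in B1 and 159 in B2 against 91.3 untreated. It was also the same for 219534_x_at, with 108 in B1 and 162 in B2 against 92.8 untreated. For 213182_x_at only B2 stood above, with 70.7 in B1 and 104 in B2 against 74.4 in the untreated array. The dimmest, 219533_at, ran the other way with 15.5 in B1 and 14.9 in B2 against 19.4 untreated, all below the array medians. Names ending in _x_at mark probe sets with probes that can also match other transcripts, and 3 of the 5 are of that kind. Over the 5 probe sets the mean log2 difference was 0.16 in B1 and 0.56 in B2.

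**Figure D2:**
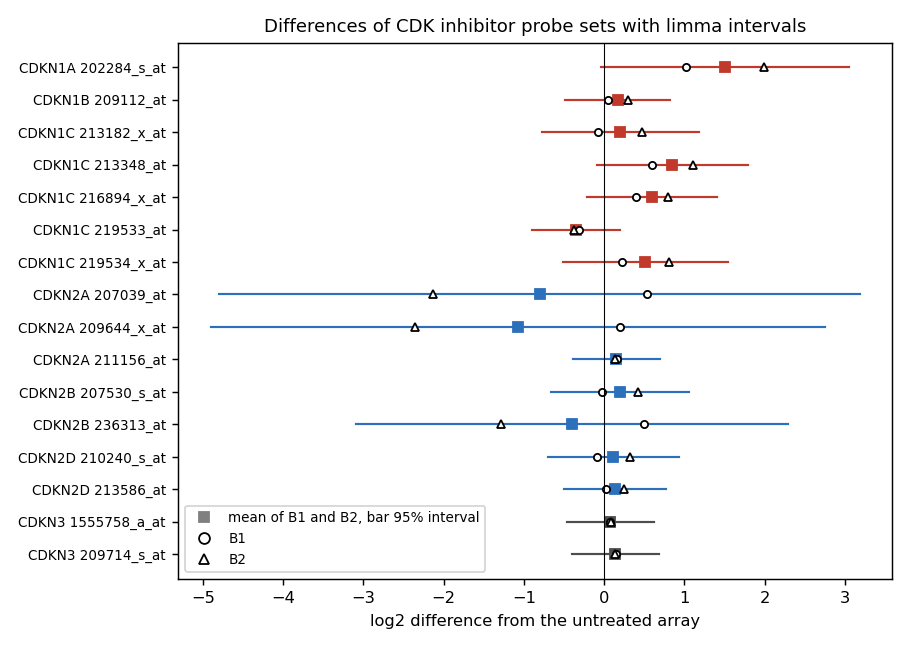
Log2 difference from the untreated array (horizontal axis) for each of the 16 probe sets (rows), with B1 as circles, B2 as triangles, and the mean of both as squares with limma's 95% interval as a bar. All 16 intervals include 0, and the widest belong to CDKN2A and CDKN2B probe sets, where B1 and B2 lie on opposite sides of 0.

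CDKN2A makes p16, which blocks CDK4 and CDK6, and, from another start, ARF, which binds MDM2. The brightest of its 3 probe sets, 209644_x_at, had an intensity of 209 in B1 and 35.6 in B2, against 182 in the untreated array. This is again an _x_at name, so some of its probes can also match other transcripts. B1 was near the untreated array at 1.15-fold, while B2 was at 0.196 of the untreated intensity. The next, 207039_at, had 115 in B1 and 18.2 in B2, against 80.0 in the untreated array, which puts B2 at 0.227 of the untreated intensity. B2 was thus the low array in both probe sets and B1 the high one, and the log2 differences of B2 from B1 were -2.55 and -2.67. Among probe sets within 0.5 log2 units of the same level, 0.733% and 0.509% had gaps as large between B2 and B1. Over all probe sets 4.72% had B2 and B1 at least 2-fold apart, in either direction. The third, 211156_at, was dim and nearly level at 26.9 in B1 and 26.3 in B2, against 24.0 untreated. The fitted log2 difference of 209644_x_at was -1.08 (SE 1.25, 95% interval -4.90 to 2.75, limma adjusted p = 0.95), an average of 2 arrays on opposite sides of the untreated one. Neither of the 2 brighter CDKN2A probe sets therefore differed in the same direction in both cisplatin arrays. Their B2 values, 35.6 and 18.2, lay at or below the B2 array median of 35.6. In RNA from a whole culture, fewer cells holding a transcript and less of it per cell cannot be told apart. The squamous marker total given above was also different in B2 alone, and its part in the CDKN2A value was not tested.

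CDKN2A has 2 annotated starts in the RefSeq table, and both are printed because p16 and ARF are made from different first exons. The annotation does not say which product each probe set reads. Both are 250 bases long, on GRCh38.p14, minus strand, written 5′ to 3′, with GC boxes in capitals as before. The window before the upstream start (ARF) is chr9:21995325-21995574, and that before the downstream start (p16) is chr9:21974858-21975107.
CDKN2A upstream start: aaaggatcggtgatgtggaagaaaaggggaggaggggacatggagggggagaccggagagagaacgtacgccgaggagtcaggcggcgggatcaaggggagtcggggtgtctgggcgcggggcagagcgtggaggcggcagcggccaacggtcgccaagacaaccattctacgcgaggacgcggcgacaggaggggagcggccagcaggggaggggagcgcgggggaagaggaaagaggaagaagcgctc
CDKN2A downstream start: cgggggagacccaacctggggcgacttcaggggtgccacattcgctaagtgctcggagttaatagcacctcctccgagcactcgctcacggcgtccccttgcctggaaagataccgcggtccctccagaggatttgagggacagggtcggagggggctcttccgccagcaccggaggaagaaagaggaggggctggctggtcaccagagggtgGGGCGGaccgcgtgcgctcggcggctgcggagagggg
The upstream window holds 0 GC boxes, and the downstream window holds 1, beginning 37 bases before its start. The other letters searched for CDKN1A are in neither.

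CDKN2B, the neighbour of CDKN2A and a target of TGF-beta signalling, was dim. Its 207530_s_at had an intensity of 31.9 in B1 and 43.6 in B2, against 32.5 in the untreated array. Its 236313_at had 23.4 in B1 and 6.82 in B2, against 16.7 in the untreated array. The first was highest in B2 and the second lowest there, so the 2 probe sets of CDKN2B ran in opposite directions in B2. The B2 to B1 gap of 236313_at, -1.78 on the log2 scale, was matched or passed by 0.333% of probe sets of like level. This probe set was lowest in the same array as the 2 brighter CDKN2A probe sets, but all of its values lay below the array medians.

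CDKN2D encodes p19, an INK4 protein whose level follows the cell cycle. Its 210240_s_at had an intensity of 62.3 in B1 and 82.9 in B2, against 66.6 in the untreated array. Its 213586_at had 25.5 in B1 and 29.7 in B2, against 25.1 in the untreated array. B2 was the highest array in both, by 1.25-fold and 1.18-fold over the untreated array, and B1 lay closer to it. The log2 intervals were -0.70 to 0.93 for 210240_s_at and -0.49 to 0.77 for 213586_at.

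CDKN3 was the steadiest member. Its 1555758_a_at had an intensity of 1188 in B1 and 1197 in B2, against 1131 in the untreated array. Its 209714_s_at had 895 in B1 and 885 in B2, against 808 in the untreated array. The treated arrays differed by 1.01-fold at most and both stood slightly above the untreated one, by 1.05-fold to 1.11-fold. Of probe sets at like levels, 97.6% and 97.3% had larger gaps between B2 and B1. The fitted log2 differences were 0.08 (95% interval -0.46 to 0.62) and 0.14 (-0.40 to 0.68).

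By class, the 7 Cip/Kip probe sets had medians of 0.22 for B1 and 0.80 for B2 on the scale of log2 differences, with 5 higher and 1 lower in both arrays. CDKN1C alone gave 5 of these 7. The 7 INK4 probe sets had medians of 0.17 in B1 and 0.14 in B2, with 2 higher and 0 lower in both and 5 in opposite directions. Over all probe sets, 39.3% were higher and 28.3% lower in both, and 17427 of 54613 lay in opposite directions. The B1 medians of the classes were thus close, and few probe sets stand behind either. B2 values ranged from -0.37 to 1.99 in the Cip/Kip class and from -2.35 to 0.42 in the INK4 class. In 10 of the 16 probe sets (62.5%) B2 lay further from B1 than B1 did from the untreated array, as it did in 54.6% of all probe sets. The genomic spans of the 7 measured genes ran from 2.52 kb (CDKN2D) to 27.6 kb (CDKN2A), against a median of 24.7 kb over 19738 genes.

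**Figure D3:**
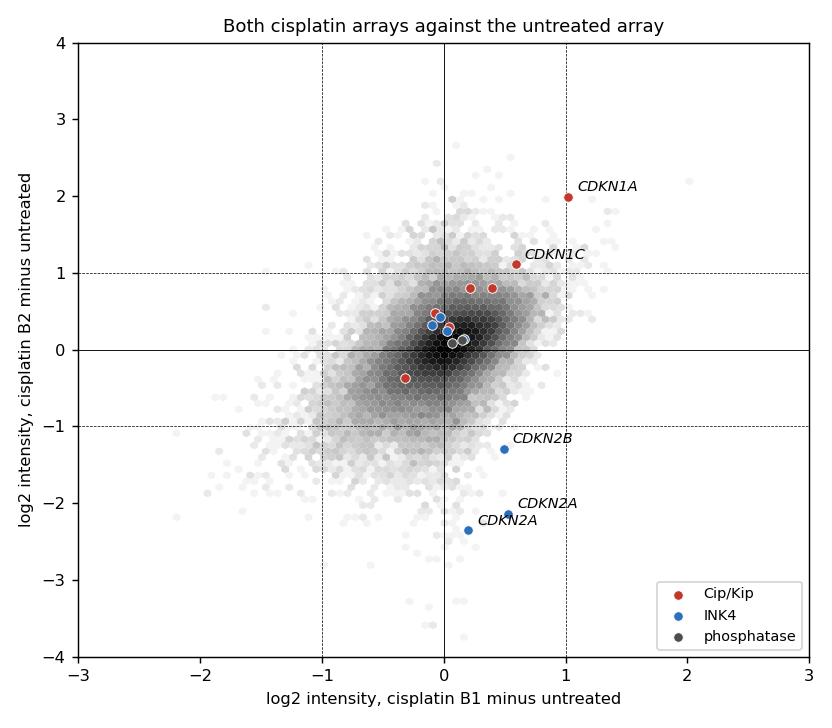
Log2 difference from the untreated array in cisplatin B1 (horizontal axis) and B2 (vertical axis) for all probe sets as grey bins, darker where more lie, and for the 16 CDK inhibitor probe sets as points coloured by class. Dashed lines mark 2-fold, and 51 probe sets lie outside the axes. CDKN1A lies beyond both upper lines at 1.02 and 1.99, and the low CDKN2A and CDKN2B points lie right of 0 and below -1.

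The partners of the inhibitors were read from 7 lists of kinases, cyclins and regulators, each gene by its brightest probe set. Beside them stand all genes, of which 39.2% lay above and 27.4% below the untreated array in both, and 0.142% and 0.678% passed the size rule upwards and downwards. No gene of any list passed limma's test. Of the 5 CDKs, 1 was higher and 2 were lower in both arrays, and 1 of them, CDK6, passed the size rule. CDK6, the D-cyclin kinase that INK4 proteins bind, had an intensity of 1031 in B1 and 1008 in B2, against 2148 in the untreated array (log2 differences -1.06 and -1.09). Both treated arrays were near one level, below the untreated array, and 6 of its 7 probe sets were lower in both. With the mean of all 7 probe sets the differences were -0.97 and -0.99, under 2-fold in both arrays, and with quantile normalization -1.03 and -1.11. CDK4, the other INK4 target, differed by -0.04 and 0.29, and CDK2, the main Cip/Kip target, by 0.19 and 0.73.

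Of the 10 cyclins, 3 were higher and 1 lower in both arrays. CCNE1, which activates CDK2, had an intensity of 537 in B1 and 922 in B2, against 301 in the untreated array (log2 differences 0.84 and 1.62), with 1 of its 2 probe sets higher in both. CCNE2, its close relative, differed by 0.65 and 0.26, and CCND2, a D-type cyclin, by -0.23 and -0.89 with all 4 probe sets lower in both. Of the 5 CDK phosphatases and inhibitory kinases, 1 was higher and 1 lower. PKMYT1, a kinase that inhibits CDK1, differed by 0.31 and 0.85, the phosphatase gene CDC25A by 0.50 and -0.23, and CDC25B by 0.01 and -0.37. Of the 11 pocket protein and E2F genes, 4 were higher and 4 lower in both. The activator E2F1 differed by 0.53 and 0.62, the repressor E2F6 by 0.13 and 0.67, and E2F3 by -0.40 and -0.34.

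**Figure D4:**
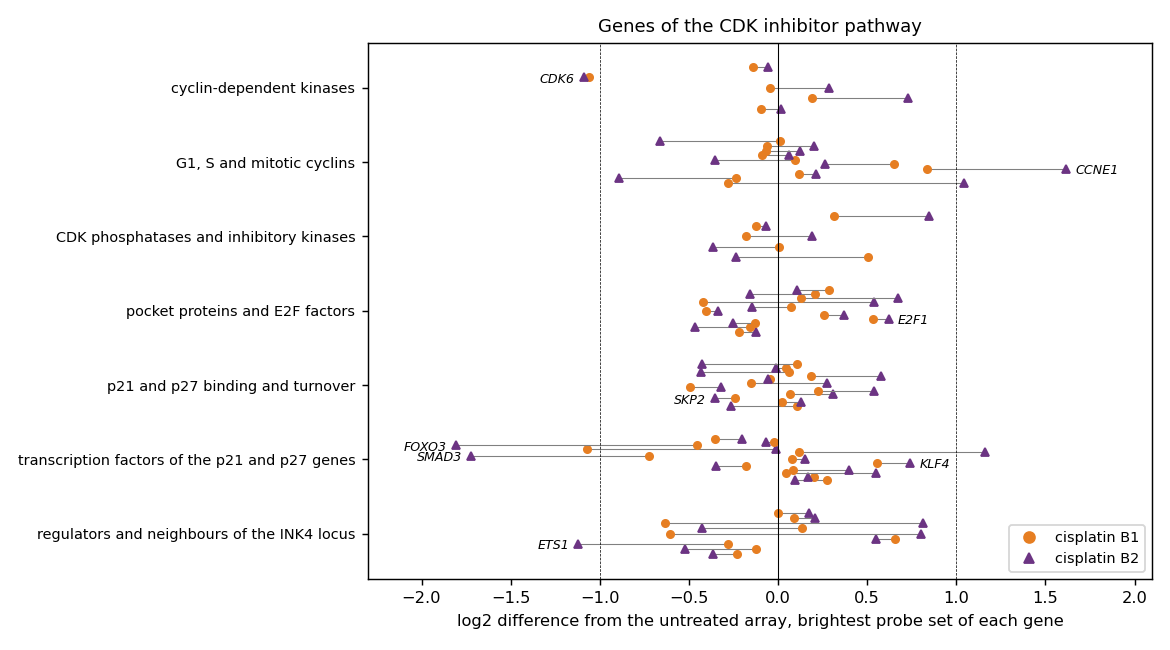
Log2 difference from the untreated array (horizontal axis) for the genes of the 7 lists (rows), with cisplatin B1 as circles, B2 as triangles and a line joining the values of a gene. Dashed lines mark 2-fold. CDK6 is the only one of these genes past 2-fold in the same direction in both arrays, and CCNE1, SMAD3 and FOXO3 are among those that pass it in B2 alone.

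Of the 12 genes that bind p21 or p27 or act in their turnover, 4 were higher and 3 lower in both arrays. SKP2, the ubiquitin ligase subunit that marks p27 for destruction, had an intensity of 1494 in B1 and 1379 in B2, against 1764 in the untreated array. All 3 SKP2 probe sets were lower in both, and the brightest differed by -0.24 and -0.36 on the log2 scale. Its scaffold CUL1 differed by -0.49 and -0.32, the small CDK-binding protein CKS2 by 0.22 and 0.54, and DTL, which directs p21 destruction on chromatin, by 0.18 and 0.58. Of the 15 transcription factors listed for the p21 and p27 genes, 13 were measured, with 7 higher and 6 lower in both. KLF4, an activator of CDKN1A, had an intensity of 1254 in B1 and 1427 in B2, against 854 in the untreated array, with both of its probe sets higher. FOXO3, an activator of CDKN1B, had 941 in B1 and 369 in B2, against 1290.4 in the untreated array. SMAD3, which carries TGF-beta signals to CDKN1A and CDKN2B, had 193 in B1 and 96.7 in B2, against 319 in the untreated array. All 4 FOXO3 and all 4 SMAD3 probe sets were lower in both arrays, more so in B2 by the brightest.

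Of the 10 regulators and neighbours listed for the INK4 locus, 9 were measured, 2 higher and 3 lower in both. ETS1, an activator of CDKN2A, differed by -0.28 and -1.12, and ETS2, a relative with the same role, by 0.66 and 0.55. In both arrays 2 of 3 ETS1 probe sets were lower and 2 of 3 ETS2 probe sets were higher. Over all their probe sets and both arrays, the mean log2 difference was -0.56 for ETS1 and 0.28 for ETS2. EZH2, a Polycomb methyltransferase that represses the locus, differed by -0.13 and -0.52. Because CDKN2A was low in B2, its 10 measured neighbours on either side along chromosome 9 were read too, a choice made after its values were seen. Of these 20 genes, read by brightest probe set, 1 was at least 2-fold lower in B2 than untreated (5%), where 4.50% of all genes were. Another 1 was at least 2-fold higher. CDKN2B was not counted as lower, although its dimmer probe set was at -1.29 in B2. MTAP, a methionine salvage enzyme gene beside CDKN2A, had an intensity of 155 in B1 and 422 in B2, against 240.1 in the untreated array. This was the brightest of its 6 probe sets, and the mean log2 difference over all 6 and both arrays was -0.02. MIR31HG, a long noncoding RNA gene further along, had 96.2 in B1 and 326 in B2, against 84.9 in the untreated array. By these probe sets MTAP and MIR31HG were highest in B2, where CDKN2A was lowest. ELAVL2, an RNA-binding protein gene on the far side of CDKN2B, had 94.5 in B1 and 32.2 in B2, against 197 in the untreated array, so it was low in both treated arrays. Only 8 of the 20 had a mean log2 value of at least 6, and the interferon genes among the 20 all lay below the array medians.

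**Figure D5:**
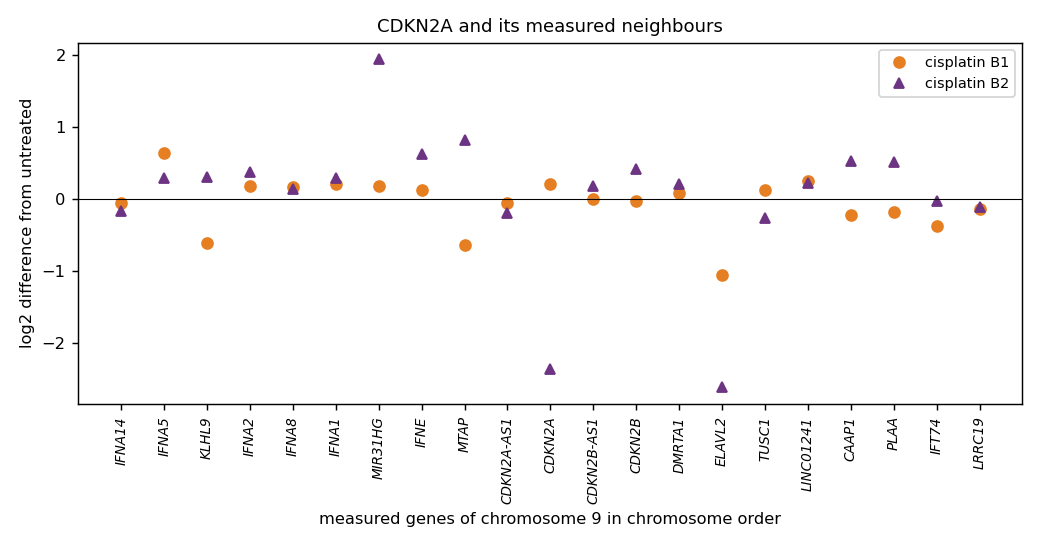
Log2 difference from the untreated array (vertical axis) in cisplatin B1 (circles) and B2 (triangles) for CDKN2A and its 10 measured neighbours on either side, in chromosome order and not to scale (horizontal axis). Each gene is shown by its brightest probe set. In B2, CDKN2A lies at -2.35, MTAP at 0.81 and CDKN2B at 0.42. The dimmer CDKN2B probe set, not shown, was at -1.29 in B2.

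The genes whose pair of log2 differences lay nearest to that of a member were sought over these 3 arrays among the 10209 genes whose mean on the log2 scale was at least 6. For CDKN1A, at 1.02 in B1 and 1.99 in B2, they were BCL6 (0.80 and 1.99), DLX2 (1.22 and 1.91) and CXCR4 (1.06 and 2.21), at distances of 0.22. For CDKN1C they were KCTD13 (0.60 and 1.16), THAP9-AS1 (0.54 and 1.09) and RPRD1A (0.52 and 1.12). For CDKN2A they were CMTM3 (0.20 and -2.42), PLGRKT (0.11 and -2.40) and F3 (0.10 and -2.39), likewise low in B2 alone. The other members lay where genes are dense, with SRF, PRKACA and PREPL nearest to CDKN1B, RTCB, PPM1D and DUSP7 to CDKN2B, COMMD2, SLC35F6 and RXRB to CDKN2D, and PPT1, PPP1R14B-AS1 and KEAP1 to CDKN3, all within 0.013.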

How the data were processed

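RNA of 3 samples of KYSE140 cells was measured on 3 oligonucleotide arrays, 2 labelled cisplatin and 1 untreated. Per the submitters' processing notes, the authors made the deposited intensities with RMA, which yields 1 value per probe set, and the values are on a linear scale (3.03 to 19645). No detection calls were used, so dim probe sets may be undetected ones. The RMA version is not stated in the labels.

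Intensities were put on the log2 scale with no pseudocount, since all were above 0, and 62 control probe sets were left out. Of 54613 others, 41091 had 1 gene symbol, 1801 several and 11721 none. Symbols were updated by gene number to GRCh38.p14. All probe sets were fitted together with limma 3.58.1 in R 4.3.3 (lmFit, eBayes). P-values were adjusted by Benjamini and Hochberg's method, and 0.05 was the threshold. There were 1 residual and 2.21 prior degrees of freedom. The untreated array, being alone, was taken to vary as the treated pair did. It was tested on simulated data from the 54613 probe sets' means and fitted prior, with 200 changed in each of 5 simulations. The share of changes called depended on how the spread was simulated, and the prior was chosen after a first version with another spread had been run, so no power is stated. Genes in the lists were read by their brightest probe set over the 3 arrays. Named were all members, up to 3 genes per list with the largest mean log2 difference at a mean log2 value of at least 6, SKP2, and the 3 genes nearest to each member by Euclidean distance. Alternatives were filters on dim probe sets, a trended prior, quantile normalization, median centring, other folds, other probe set choices and each cisplatin array alone. The members and lists were chosen with earlier results of these data known. Sequences are from RefSeq, with 7 of 8 members matched, and the number of arrays limits every value's precision.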

Additional observations from a re-analysis of the deposited data

How the results depend on the processing

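No paired analysis was possible because there was only 1 untreated array. No probe set or gene passed limma under any filter, prior, scaling or probe set choice tried. With 1 untreated array and 1 residual degree of freedom, this does not show that expression was unchanged. The size rule counted 127 higher and 360 lower probe sets over the whole table. This moved to 83 and 200 at a mean log2 value of at least 6, to 637 and 1460 at 1.5-fold, and to 22 and 66 at 3-fold. With 1 cisplatin array left out, it gave 201 to 1222 higher and 716 to 2103 lower, the larger numbers from B2 alone. For genes, 28 higher and 134 lower became 189 and 524 at 1.5-fold, and 4 and 24 at 3-fold. They were 47 to 591 higher and 299 to 890 lower with 1 array left out. The mean of all probe sets gave 38 lower genes. Among CDK inhibitor probe sets, 1 higher and 0 lower became 0 higher with median centring or at 3-fold, 2 higher at 1.5-fold, and 1 to 2 higher and 0 to 3 lower with 1 array left out. The B2 array alone gave the 2 and the 3. With B1 alone, the log2 difference changed sign against the mean of both arrays for CDKN1C 213182_x_at (-0.073, against 0.48 with B2 alone), CDKN2A 207039_at (0.53 against -2.14) and 209644_x_at (0.20 against -2.35), CDKN2B 207530_s_at (-0.028 against 0.42) and 236313_at (0.49 against -1.29), and CDKN2D 210240_s_at (-0.095 against 0.32). Of the 7 member genes, 3 to 4 were higher in both arrays under the scalings and probe set choices tried, an alternative added after seeing the data. They were 5 in B1 alone and 6 in B2 alone. Over all genes the median log2 difference was also above 0, at 0.03 in B1 and 0.05 in B2, so most genes were higher in each array too. The exact share of all genes higher in each array alone was not counted, so the 5 and 6 are not read as a result about the members. Median centring turned 1 lower gene into 2 for the cyclins and for the CDK phosphatases and inhibitory kinases.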
